A study of Mus musculus with 24 samples.

Results

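The genes of oxidative phosphorylation were examined in mouse embryonic stem cells in which the architectural protein CTCF was degraded and replaced by wild-type or mutant CTCF. Members were taken by symbol: those beginning with Ndufa, Ndufb, Ndufc, Ndufs or Ndufv and a digit, Sdha to Sdhd, those beginning with Uqcr, with Cox4 to Cox8 or with Atp5, and the mitochondrially encoded mt-Nd, mt-Co, mt-Cytb and mt-Atp genes, without symbols ending in -ps. This gave 101 of 55291 listed gene symbols, 88 encoded in the nucleus and 13 on the mitochondrial chromosome. The nuclear members comprised 38 of complex I, 4 of complex II, 8 of complex III, 21 counted with complex IV and 17 counted with complex V. The mitochondrially encoded members comprised 7 of complex I, 1 of complex III, 3 of complex IV and 2 of complex V. The symbol rule also takes in genes that are not subunits, such as Cox7a2l, and Ndufa4 and Ndufa4l2 were placed with complex IV, to which the Ndufa4 protein belongs. In all, 95 members, 82 nuclear and 13 mitochondrially encoded, reached a mean of at least 10 normalized counts over 22 libraries and were tested. The 6 that did not were Cox6c2, Cox8b, Cox8c, Ndufa11b, Ndufb4c and Ndufs6b.

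All cells were derived from E14Tg2a, a 129/Ola embryonic stem cell line, and were grown without feeders in serum with LIF, CHIR99021 and PD0325901. They carry CTCF fused to a degron that the plant hormone indole-3-acetic acid (IAA) activates, and a doxycycline-inducible Ctcf transgene. The 9 mutant groups, labelled ID, expressed a transgene with a single substitution (R339Q, R342C, S354F, K365T, R377C, R377H, Q418R, R448Q or H455R) after 500 µM IAA and 1 µg/ml doxycycline for 2 days. The cells with the wild-type transgene were sampled after IAA alone (WT IAA, CTCF depleted with no transgene induced), after IAA and doxycycline (WT ID, the rescue to which the mutants were compared) and without either agent (WT untreated). WT IAA and WT ID thus differ in both doxycycline and transgene CTCF, and the 2 cannot be told apart. Against WT untreated, the agents and the change in CTCF cannot be told apart either. Each of the 12 groups had 2 libraries of total RNA depleted of ribosomal RNA. Each substitution was represented by 1 group, called a line below, and the labels do not say whether it was 1 clone. The substitution and anything else particular to that line therefore cannot be told apart. The labels do not say whether the 2 libraries of a group came from separate cultures, so p-values measure only the spread between these libraries.

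Oxidative phosphorylation couples the oxidation of nutrients to the synthesis of ATP at the inner mitochondrial membrane. Complex I (NADH dehydrogenase) and complex II (succinate dehydrogenase) pass electrons to ubiquinone, complex III passes them to cytochrome c, complex IV (cytochrome c oxidase) reduces oxygen, and complex V (ATP synthase) uses the resulting proton gradient. Mitochondrial DNA is transcribed as long precursors that are cut into messenger, transfer and ribosomal RNAs, and all other subunits are imported, so that every complex except complex II is built from products of both genomes. Pluripotent stem cells rely heavily on glycolysis but keep a functional respiratory chain.

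The libraries held 27.8 to 77.1 M recovered reads, with M for a factor of 1e6, and mitochondrial RNA of all kinds took 1.22% to 3.38% of them. Summed TPM (a level scaled by transcript length and library total) of 8 pluripotency markers was 8183 to 10304 in the 24 libraries, against 1.75 to 10.1 for 7 fibroblast markers and 0.325 to 3.75 for 5 muscle markers. Primitive endoderm, mesendoderm and neural markers summed to 63.7 to 157, 14.0 to 33.7 and 38.0 to 168 TPM, and no listed marker was at 0 in every library. The part of any such cells in the results was not tested. In bulk RNA, fewer cells of a type and less RNA per cell cannot be told apart.

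The mitochondrially encoded members fell into 2 levels. For mt-Co1, mt-Nd1, mt-Nd2, mt-Cytb, mt-Nd4, mt-Nd5 and mt-Nd6 the median TPM over 24 libraries lay between 2375 (mt-Nd6) and 14065 (mt-Co1). For mt-Co2, mt-Atp8, mt-Atp6, mt-Co3, mt-Nd3 and mt-Nd4l no library exceeded 82.4 TPM and the lowest value was 0.715 TPM. Genes of both levels lie next to each other on the same strand of the mitochondrial chromosome: mt-Co1 (catalytic subunit of complex IV, bases 5328 to 6872) had a median of 14065 TPM, and its neighbour mt-Co2 (bases 7013 to 7696) had 13.9 TPM. The low genes are those that the mm10 annotation also holds as near-identical copies on chromosome 1 (chr1:24611535-24616197, minus strand), where 7 pseudogenes lie in the order of the mitochondrial genes. The copy of mt-Co2 (Gm28661) matched it over 681 bases with 0 mismatches, that of mt-Atp6 (Gm10925) over 678 bases with 0, that of mt-Co3 (Gm28437) over 783 bases with 0, that of mt-Nd4l (Gm10222) over 294 bases with 0 and that of mt-Nd3 (Gm28438) over 345 bases with 1. By contrast mt-Nd1, mt-Nd2, mt-Nd5, mt-Nd6 and mt-Cytb had no copy, the copy of mt-Nd4 covered 876 of its 1378 bases, and that of mt-Co1 covered 492 of 1545 with 6 mismatches. For mt-Atp8 only 43 of 204 bases had a listed copy. The 233 bases between the listed copies of mt-Atp6 and mt-Co2, the place that mt-Atp8 holds on the mitochondrial chromosome, were not compared with it. How reads that fit several places were counted is not given in the sources used here, so values of the 6 low genes, and in part of mt-Nd4 and mt-Co1, are uncertain. The first 60 bases of mt-Nd3 and of its copy show how close they are, with the differing base in capitals (GENCODE M21 transcripts, mm10).
mt-Nd3: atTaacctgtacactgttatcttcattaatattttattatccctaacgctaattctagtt
Gm28438: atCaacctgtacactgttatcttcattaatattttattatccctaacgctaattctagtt

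**Figure D1:**
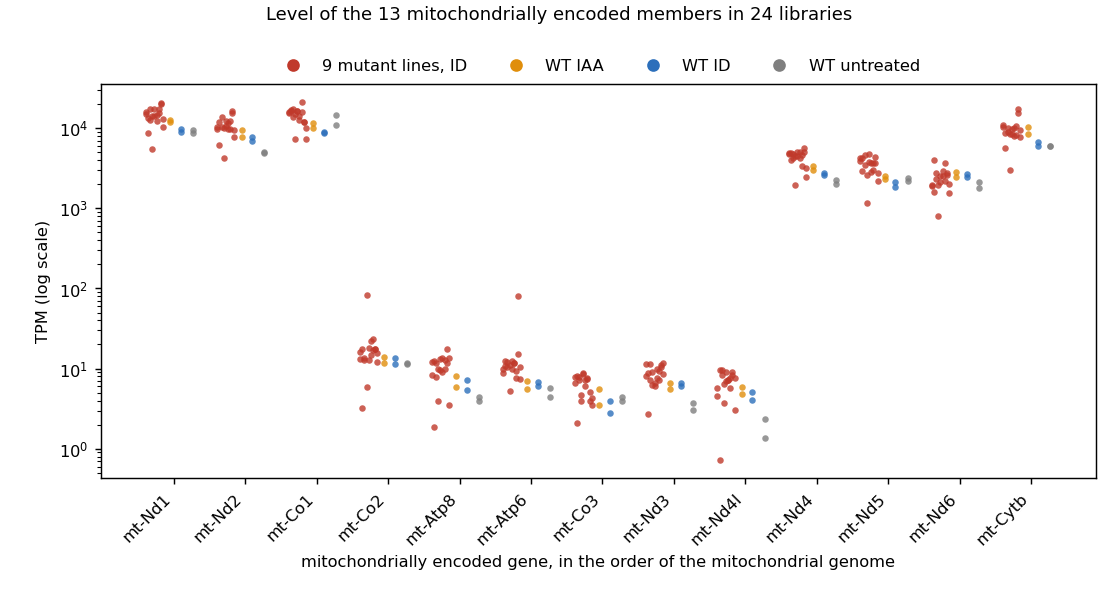
Level of each mitochondrially encoded member in 24 libraries (TPM, log axis), 1 point per library, with genes in chromosomal order. 7 genes have medians of 2375 to 14065 TPM. The 6 that have near-complete listed copies on chromosome 1, or in the case of mt-Atp8 a partial listed one, stay at or below 82.4 TPM.

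Summed over members, mitochondrially encoded RNA was higher relative to nuclear RNA in 7 of the 9 mutants than in WT ID, with no overlap between libraries. The ratio of the 2 TPM sums was 4.86 and 5.24 in the R448Q ID libraries, 5.03 and 3.70 in Q418R ID, 4.42 and 3.73 in R377C ID, 3.53 and 4.37 in S354F ID, 3.77 and 3.88 in R339Q ID, 3.98 and 3.24 in R377H ID and 2.94 and 4.27 in R342C ID, against 2.35 and 2.63 in WT ID. Relative to WT ID, mean ratios were 2.03-fold in R448Q ID, 1.74-fold in Q418R ID, 1.63-fold in R377C ID, 1.58-fold in S354F ID, 1.54-fold in R339Q ID, 1.44-fold in R377H ID and 1.42-fold in R342C ID. In H455R ID the ratios were 2.37 and 3.13 and in K365T ID 3.68 and 1.38, and both groups overlapped WT ID. Of the K365T ID libraries 1 lay above and 1 below both WT ID libraries. WT IAA had ratios of 3.05 and 3.34, 1.28-fold those of WT ID with no overlap. Against WT untreated, whose ratios were 2.49 and 2.24, WT ID overlapped and WT IAA was 1.35-fold higher with no overlap. The overlap of WT ID depends on the genes summed. Without mt-Co1, mt-Atp8, mt-Nd4l and mt-Nd6, the log2 ratios were 0.701 and 0.932 in WT ID, above 0.588 and 0.542 in WT untreated. From summed reads of all members they overlapped (0.633 and 0.805 against 0.794 and 0.620). No test was run on the ratio, since an exact permutation of 2 libraries against 2 cannot go below the 0.05 threshold, and all 9 mutants share the same WT ID pair. The numerator moved more than the denominator: the mitochondrially encoded sum ran from 24134 TPM (K365T ID replicate 2) to 79687 TPM (R448Q ID replicate 2), and the nuclear sum from 14726 to 17481 TPM.

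**Figure D2:**
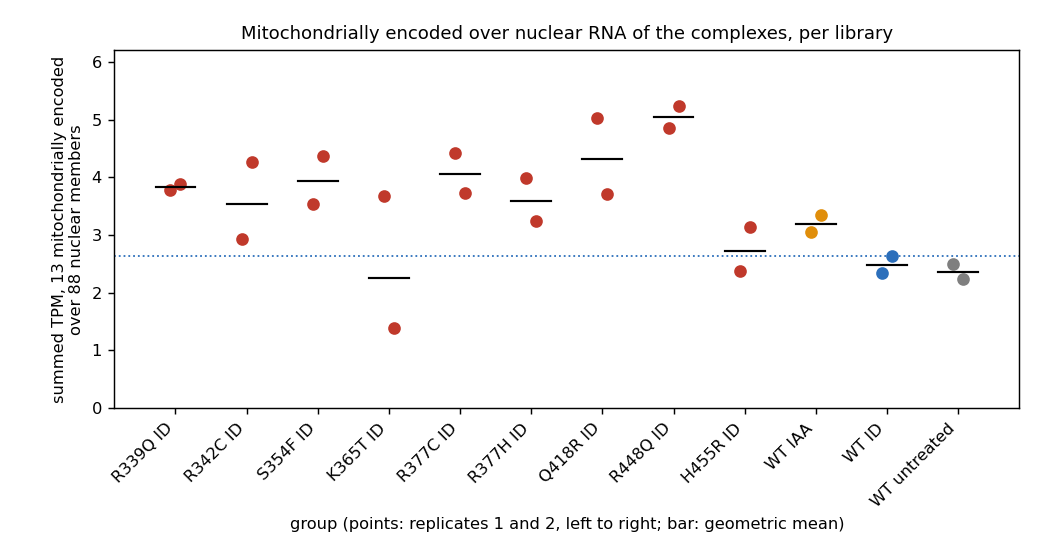
Ratio of summed TPM of 13 mitochondrially encoded members to summed TPM of 88 nuclear members, 1 point per library, 2 libraries per group, on a linear axis. The dotted line marks the higher WT ID library (2.63), and both libraries lie above it in 7 mutants and in WT IAA.

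Gene by gene, the increases that passed the test (limma on log2(count + 1), adjusted p under 0.05) were in the abundant genes, except mt-Atp6 in R448Q ID and mt-Co3 in R377C ID and Q418R ID. Of 13 mitochondrially encoded members, 7 rose in R448Q ID, 5 in Q418R ID, 4 in R377C ID, 3 in R377H ID, 3 in R339Q ID, 2 in R342C ID, 2 in S354F ID and 0 in K365T ID, H455R ID and WT IAA. Increases of all genes tested made up 22.8% in R448Q ID, 11.2% in Q418R ID, 4.67% in R377C ID, 14.4% in R377H ID, 11.8% in R339Q ID, 10.0% in R342C ID, 5.49% in S354F ID, 17.7% in K365T ID, 12.6% in H455R ID and 9.96% in WT IAA. Only 1 decrease was called, that of mt-Nd6 in K365T ID. At an unadjusted p under 0.05, 1 member in K365T ID, 0 in H455R ID and 0 in WT IAA passed, and edgeR on recovered reads called 1 increase in K365T ID and 0 in H455R ID and WT IAA. The median log2 fold change of the 13 was 1.17 in R448Q ID, between 0.62 and 0.75 in R339Q ID, S354F ID, R377C ID, R377H ID and Q418R ID, and between 0.11 and 0.21 in R342C ID, K365T ID, H455R ID and WT IAA.

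mt-Nd5, a proton-pumping subunit of complex I with no nuclear copy, had 99733 and 117655 normalized counts in R448Q ID, 111903 and 92772 in R377C ID, 86641 and 109048 in S354F ID, 94910.3 and 97559 in R339Q ID, 93427 and 79664 in Q418R ID, 93724 and 72705 in R377H ID and 62991 and 101656 in R342C ID, against 43658 and 52911 in WT ID. Every one of these libraries was above both WT ID libraries, and the log2 fold change ran from 0.74 ± 0.26 (SE) in R342C ID to 1.17 ± 0.26 in R448Q ID. K365T ID (65936 and 29676), H455R ID (53709 and 64546) and WT IAA (55069.8 and 60918) did not pass. mt-Co1 rose in the same 7 mutants, by 0.62 ± 0.21 in R448Q ID up to 1.15 ± 0.21 in Q418R ID (adjusted p = 0.000463). mt-Nd4, another pump subunit, rose in 5 of them, by 0.65 in Q418R ID to 1.18 in R448Q ID. In TPM, mt-Co1 in WT ID (8996 and 8672) was below WT untreated (14474 and 10988). So was mt-Nd5 (1864 and 2101 against 2414 and 2188), while mt-Nd4 was above it (2572 and 2775 against 2258 and 1983). The calls of mt-Co3 in R377C ID (1.33 ± 0.41) and Q418R ID (1.24 ± 0.41) rest on 89.6 and 89.0 and on 79.2 and 87.7 normalized counts against 40.2 and 30.1 in WT ID. Apart from mt-Co1 in Q418R ID and 6 genes in R448Q ID, each of these increases was lost when at least 1 of the 4 libraries was left out, and the counts then ran between 0 and 3 in the mutants other than R448Q ID, Q418R ID and K365T ID.

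R448Q ID had the most mitochondrially encoded increases. mt-Cytb, the cytochrome b of complex III, had 262895 and 299482 normalized counts in R448Q ID against 87892 and 107503 in WT ID, a log2 fold change of 1.53 ± 0.29 (SE), adjusted p = 0.000257. The 2 R448Q ID libraries both lay above WT ID. mt-Nd1 rose by 1.29 ± 0.28, mt-Nd2 by 1.28 ± 0.30, mt-Nd4 by 1.18 ± 0.23 and mt-Nd5 by 1.17 ± 0.26. The largest fitted change, of mt-Atp6 (subunit a of ATP synthase, 2.61 ± 0.47 (SE), adjusted p = 0.000133), rests on 831 and 157 normalized counts against 59.3 and 57.2 in WT ID, most of it in R448Q ID replicate 1. Left out singly, none of the 4 libraries ended the calls of these 6 genes. mt-Nd6, the only protein gene on the other strand, did not follow them, with 19983 and 21680.0 in R448Q ID against 17916 and 17571 in WT ID (0.23 ± 0.34, adjusted p = 0.624).

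K365T ID cannot be described by 1 value, because its libraries went opposite ways. mt-Nd5 was at 65936 and 29676 normalized counts and mt-Cytb at 134912 and 49376 in K365T ID, against 43658 and 52911 for mt-Nd5 and 87892 and 107503 for mt-Cytb in WT ID. The first K365T ID library was above and the second below WT ID for both genes. Without replicate 1 the test called 0 increases and 4 decreases among the 13 members, and without replicate 2 it called 4 increases and 0 decreases. mt-Nd6 had 14209 and 5932 in K365T ID against 17916 and 17571 in WT ID (−0.95 ± 0.34 (SE), adjusted p = 0.0414), and that call was lost without K365T ID replicate 2 or either WT ID library. mt-Co2 showed the reverse spread, 786 and 57.9 in K365T ID against 100.2 and 126 in WT ID, which did not pass.

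Among 82 nuclear members the share of calls was near or below that of all genes in every comparison. Of these members 26 rose and 11 fell in R448Q ID (45.1%, against 45.8% of all genes, 22.8% up and 23.1% down), 25 rose and 1 fell in K365T ID (31.7%, against 32.0% of all genes, 17.7% up and 14.2% down), 4 rose and 18 fell in R342C ID (26.8%, against 23.3% of all genes, 10.0% up and 13.3% down) and 12 rose and 4 fell in R377H ID (19.5%, against 25.1% of all genes, 14.4% up and 10.7% down). Fewer were called elsewhere: 5 rose and 6 fell in Q418R ID (13.4%, against 25.0% of all genes, 11.2% up and 13.8% down), 4 rose and 4 fell in R339Q ID (9.76%, against 21.5% of all genes, 11.8% up and 9.7% down), 3 rose and 1 fell in S354F ID (4.88%, against 9.8% of all genes, 5.49% up and 4.31% down), 2 rose and 1 fell in R377C ID (3.66%, against 8.09% of all genes, 4.67% up and 3.43% down) and 4 rose and 0 fell in H455R ID (4.88%, against 23.1% of all genes, 12.6% up and 10.5% down). In WT IAA 3 rose and 8 fell (13.4%, against 20.7% of all genes, 9.96% up and 10.7% down). In K365T ID the calls were mostly increases, 25 of 82 where increases made up 17.7% of all genes, and in R342C ID mostly decreases, 18 of 82 where decreases made up 13.3%. The median log2 fold change of the nuclear members was small throughout, from −0.16 in R342C ID to 0.15 in K365T ID, so the group as a whole moved by little. Over the 9 mutants, 24 nuclear members were called in none, 23 in 1, 31 in 2 to 4 and 4 in 5 or more, and 13 were called up in 1 mutant and down in another. The same tally over all 18713 tested genes is not given, so these counts cannot be called particular to the members.

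Single libraries decided several of these counts. In R342C ID the count of nuclear calls was 30 with R342C ID replicate 2 left out, 11 with R342C ID replicate 1 or WT ID replicate 2 left out, and 12 with WT ID replicate 1 left out. In K365T ID it was 29 with K365T ID replicate 1 left out, 15 with K365T ID replicate 2 left out, and 13 and 19 with WT ID replicate 1 and WT ID replicate 2 left out. In R448Q ID it stayed between 27 and 31.

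**Figure D3:**
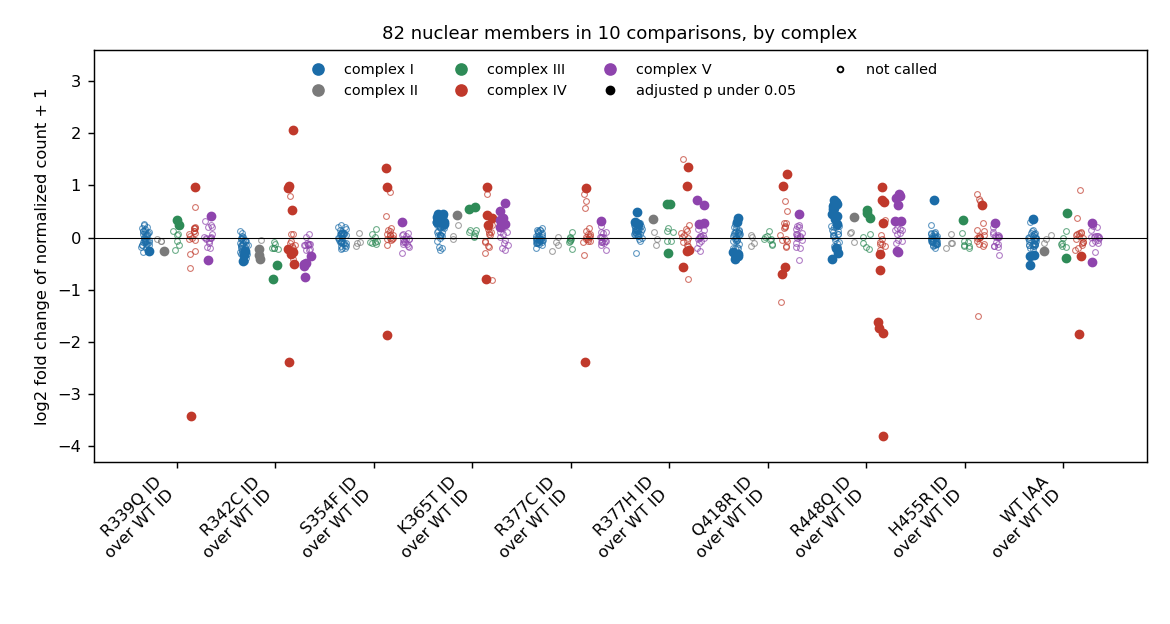
Log2 fold change of 82 nuclear members in 9 mutants and WT IAA, each over WT ID, grouped by complex, with filled points for members called at an adjusted p under 0.05 and open points for the rest. Increases prevail in K365T ID (25 up, 1 down) and R448Q ID (26 up, 11 down), and decreases in R342C ID (4 up, 18 down).

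In complex I, 12 of 35 nuclear members rose and 0 fell in K365T ID, 12 rose and 3 fell in R448Q ID, and 0 rose and 3 fell in R342C ID. Of all genes 17.7% rose in K365T ID, 22.8% rose and 23.1% fell in R448Q ID, and 13.3% fell in R342C ID, where the share of complex I was the smaller. Ndufs1, the largest core subunit with iron-sulfur clusters of the NADH-oxidizing arm, went both ways. It had 8795 and 9042 normalized counts in R448Q ID and 7514 and 7526 in K365T ID, and 4449.7 and 5160.1 in R342C ID and 5172 and 4921 in R339Q ID, against 5862 and 6151 in WT ID. The first pair of groups lay above WT ID (0.57 and 0.32) and the other pair below (−0.33 and −0.25). The R339Q ID decrease was lost without any 1 of the 4 libraries, up to adjusted p = 0.147. With the median of the genes within 5 Mb subtracted, the log2 fold change was 0.09 in R448Q ID (adjusted p = 0.42), 0.05 in K365T ID (adjusted p = 0.729) and −0.20 in R342C ID (adjusted p = 0.0889), and none of the 4 calls remained. Ndufs1 overlaps the antisense gene Ino80dos, and the strand setting of the counting is not given.

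Ndufb7, an accessory subunit of the membrane arm, had 482 and 493 normalized counts in WT IAA, 475 and 557 in R342C ID and 522 and 541 in Q418R ID, against 719.8 and 691 in WT ID. All 6 libraries were below WT ID, and the log2 fold changes were −0.53 ± 0.10 (SE), adjusted p = 0.000763 in WT IAA, −0.45 in R342C ID and −0.41 ± 0.10 (SE), adjusted p = 0.00423 in Q418R ID. In R448Q ID it rose, with 982 and 942 normalized counts (0.45 ± 0.10 (SE), adjusted p = 0.000837), a call that ended with the regional median subtracted (−0.05). Ndufc1, a small accessory subunit, rose by 0.69 ± 0.10 in R448Q ID and 0.44 ± 0.10 in K365T ID and fell by 0.36 in Q418R ID. The R448Q ID and K365T ID increases ended with the regional median subtracted (−0.02 and 0.18), and the Q418R ID call was lost without Q418R ID replicate 1 or either WT ID library. Ndufb10, another membrane-arm subunit, rose in R377H ID (0.50), K365T ID (0.41) and R448Q ID (0.25) and fell in WT IAA (−0.33) and Q418R ID (−0.27). Both Ndufb10 decreases were lost in 3 of the 4 fits with a library left out, up to adjusted p = 0.126 in WT IAA and 0.375 in Q418R ID, where it was −0.15 without Q418R ID replicate 1, and both ended with the regional median subtracted. Ndufs8, an iron-sulfur core subunit, was called in R448Q ID only of the 10 comparisons, as a decrease, with 2295 and 2166 normalized counts against 2909 and 3025 in WT ID (−0.41 ± 0.085 (SE), adjusted p = 0.000508). Ndufa10 rose in R448Q ID, K365T ID and Q418R ID (0.61, 0.45 and 0.30).

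The 4 subunits of complex II are all nuclear, and 3 of them fell in R342C ID. The counts were 2175 and 2399 in R342C ID against 2971 and 3116 in WT ID for the membrane anchor Sdhd (−0.41 ± 0.089 (SE), adjusted p = 0.00267), which was chosen after its values were seen. Sdhc, the other anchor, fell by 0.33 and the flavoprotein Sdha by 0.22, calls that held in 1 of the 4 fits with a library left out. Sdhc instead rose in K365T ID (0.44 ± 0.093) and R448Q ID (0.40 ± 0.093), of which the R448Q ID call ended with the regional median subtracted (0.06). Sdha fell in R339Q ID (−0.26 ± 0.073 (SE), adjusted p = 0.0139) and in WT IAA (−0.26 ± 0.073 (SE), adjusted p = 0.0158), and both calls were lost in 3 of the 4 fits with a library left out, up to adjusted p = 0.103 in R339Q ID and 0.142 in WT IAA.

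Of the nuclear members of complex III, Uqcrh, the acidic hinge protein that contacts cytochrome c1, varied most between mutants. It had 955 and 1264 normalized counts in R342C ID and 1579.9 and 1512 in R377H ID, 2686 and 2821 in R448Q ID, 2621 and 2228 in R339Q ID and 2542 and 2737 in WT IAA, against 1851 and 1964 in WT ID. R342C ID and R377H ID lay below WT ID and the other 3 groups above it. The log2 fold changes were −0.79 ± 0.11 (SE), adjusted p = 5.98e-05 in R342C ID, −0.30 in R377H ID, 0.53 ± 0.11 (SE), adjusted p = 0.000492 in R448Q ID, 0.34 in R339Q ID and 0.47 in WT IAA. The R342C ID and R448Q ID calls held whichever library was left out, the R377H ID call was lost each time, and those of R339Q ID and WT IAA were lost without WT ID replicate 1, among others. In TPM, Uqcrh in WT ID (116 and 115) was below WT untreated (164 and 176), which WT IAA (157 and 167) overlapped. Uqcr11, a small subunit, fell in R342C ID with 2124 and 2446 normalized counts against 3284 and 3259.8 in WT ID (−0.52 ± 0.081 (SE), adjusted p = 0.000202). Uqcr10 and Uqcrq, small subunits encoded on chromosome 11, rose in K365T ID (0.58 and 0.55) and R377H ID (0.64 and 0.64). Uqcrb, which helps to bind ubiquinone, rose by 0.34 ± 0.078 in H455R ID, 0.48 ± 0.078 in R448Q ID and 0.25 ± 0.078 in R339Q ID, and 68.6% of its transcript is matched at 98% identity or more by other genes.

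Cox7a2l rose in 8 of the 9 mutants, and was called in as many lines as Atp5md. Its protein, counted here with complex IV by its symbol, helps to join complexes III and IV into a supercomplex. Normalized counts were 2580.4 and 2348 in R339Q ID, 2369 and 2469 in R342C ID, 2551 and 2322 in S354F ID and 2192 and 2716 in K365T ID. They were 2364 and 2489 in R377C ID, 2443 and 2510.4 in R377H ID, 2681 and 3152 in Q418R ID and 2516 and 2363 in R448Q ID, against 1279 and 1220.3 in WT ID. H455R ID had 1203 and 1088 and WT IAA 1247 and 1191. The 16 libraries of the 8 lines all stood above the other 6 libraries of that table, with log2 fold changes of 0.95 ± 0.10 in R342C ID to 1.22 ± 0.10 in Q418R ID and adjusted p between 3.73e-08 and 3.08e-06. The change was shared by its neighbourhood. Cox7a2l lies at chr17:83501918-83517330 (mm10, minus strand), and 77 tested genes of chromosome 17 from 75 Mb onward had a median log2 fold change of 0.91 to 0.95 in the same 8 lines, against −0.02 in H455R ID and −0.03 in WT IAA. The 722 genes up to 70 Mb had medians of −0.15 to −0.01. Of 6 members on chromosome 17 it is the only one past 75 Mb. After the median of the genes within 5 Mb was subtracted, its log2 fold change was −0.0094 in S354F ID and 0.24 in Q418R ID, the lowest and highest of the 8, and none of the 8 calls remained (Q418R ID adjusted p = 0.0517). The number of chromosomes was not measured.

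**Figure D4:**
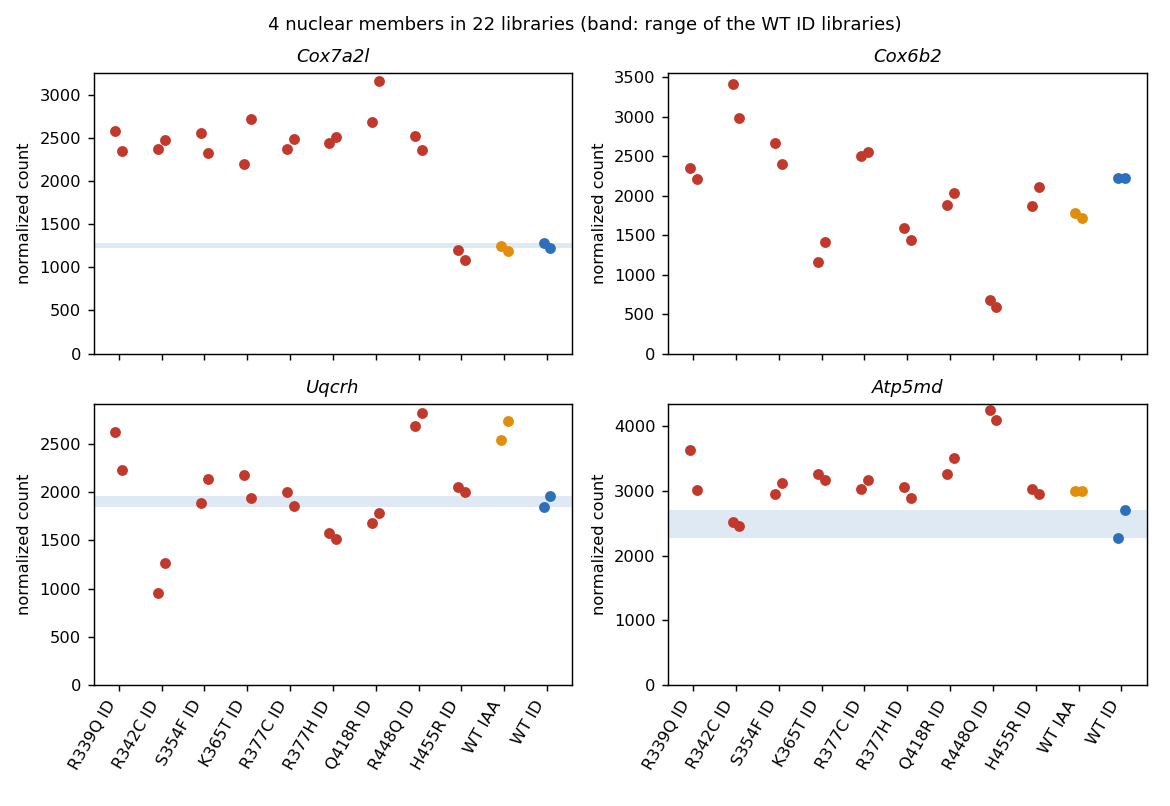
Normalized counts of Cox7a2l, Cox6b2, Uqcrh and Atp5md in 22 libraries, 1 point per library, on linear axes. Cox7a2l stands at 2192 to 3152 in 8 mutants and near 1200 in H455R ID, WT IAA and WT ID, and Cox6b2 is lowest in R448Q ID (673 and 586).

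The 250 bases upstream of the RefSeq start (GRCm38.p6) of 4 nuclear members that the results turn on are given 5′ to 3′, with matches to the searched motifs in capitals. They are Cox7a2l, chr17:83514334-83514583 (minus strand); Cox7b2, chr5:71548206-71548455 (minus strand); Uqcrh, chr4:116075071-116075320 (minus strand); and Atp5h, chr11:115419920-115420169 (minus strand).
Cox7a2l: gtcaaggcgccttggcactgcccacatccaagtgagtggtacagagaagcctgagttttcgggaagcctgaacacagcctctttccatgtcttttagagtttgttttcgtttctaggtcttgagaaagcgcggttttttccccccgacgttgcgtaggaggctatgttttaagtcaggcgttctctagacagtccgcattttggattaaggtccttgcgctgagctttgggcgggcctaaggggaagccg
Cox7b2: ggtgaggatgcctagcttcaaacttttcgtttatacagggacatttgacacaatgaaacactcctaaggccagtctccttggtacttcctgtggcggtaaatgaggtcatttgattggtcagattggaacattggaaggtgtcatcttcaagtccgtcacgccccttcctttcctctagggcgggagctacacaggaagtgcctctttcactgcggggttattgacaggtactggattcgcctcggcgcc
Uqcrh: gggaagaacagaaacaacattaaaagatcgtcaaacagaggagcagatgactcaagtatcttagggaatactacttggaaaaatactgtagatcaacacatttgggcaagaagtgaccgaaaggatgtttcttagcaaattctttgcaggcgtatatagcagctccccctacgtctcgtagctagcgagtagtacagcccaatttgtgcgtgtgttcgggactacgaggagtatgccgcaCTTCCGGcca
Atp5h: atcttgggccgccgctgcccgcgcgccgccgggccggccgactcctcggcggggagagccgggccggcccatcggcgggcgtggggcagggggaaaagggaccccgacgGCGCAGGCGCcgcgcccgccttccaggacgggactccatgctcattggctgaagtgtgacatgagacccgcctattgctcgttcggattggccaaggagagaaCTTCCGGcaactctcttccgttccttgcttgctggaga
In all, 4 motifs were searched on both strands, NRF1 (GCGC and TGCGC with 1 base between), ETS (CCGGAAG), YY1 (AAN and ATGGC joined) and a CTCF-like core (CC, 3 bases, AGG, 1 base, GGC). Of 68 nuclear members found in the RefSeq table, 19.1% had the NRF1 letters against 4.23% of 27025 genes, and 17.6% had the ETS letters against 7.83%. The YY1 letters were in 8.82% against 4.49%, and the CTCF-like letters in 7.35% against 3.39%. Uqcrh held an ETS match and Atp5h an ETS and an NRF1 match, both motifs bound by known activators of respiratory genes, and Cox7a2l and Cox7b2 held none of the 4. The Cox7a2l stretch precedes a RefSeq start that lies inside the GENCODE span given above. It is therefore not upstream of the 5′ end of that span, which was not searched.

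Several subunits of complex IV exist as tissue isoforms, and these gave the largest fold changes. Cox7b2, an isoform known from testis, had 4.84 and 2.38 normalized counts in R339Q ID, 7.06 and 9.28 in R342C ID, 7.54 and 19.3 in S354F ID, 12.8 and 5.11 in R377C ID and 5.04 and 0.924 in R448Q ID, against 45.4 and 48.1 in WT ID. All 10 libraries were below WT ID and below WT IAA (54.5 and 35.4), and the decreases were −3.43 ± 0.54 (SE), adjusted p = 0.000151 in R339Q ID, −2.39 in R342C ID, −1.86 in S354F ID, −2.38 in R377C ID and −3.81 in R448Q ID. The S354F ID call was lost without S354F ID replicate 1 or either WT ID library, and the R377C ID call without R377C ID replicate 2 or either WT ID library. The other mutants had 35.2 and 19.3 (K365T ID), 24.7 and 28.3 (R377H ID), 15.5 and 23.8 (Q418R ID) and 14.3 and 17.5 (H455R ID), each below WT ID without passing. It made up 0.174% of the summed Cox7b and Cox7b2 TPM in R339Q ID and 2.25% in WT ID.

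Cox6b2, the testis isoform of a subunit at the dimer interface, was well expressed. It had 673 and 586 normalized counts in R448Q ID, 1159 and 1416 in K365T ID, 1589 and 1437 in R377H ID and 1777 and 1710.3 in WT IAA, and 3415 and 2981 in R342C ID, against 2228 and 2217 in WT ID. It fell by 1.82 ± 0.10 (adjusted p = 1.21e-10) in R448Q ID, by 0.79 in K365T ID, by 0.56 in R377H ID and by 0.35 in WT IAA, and rose by 0.52 ± 0.10 in R342C ID. The 3 mutant decreases and the increase held whichever library was left out, and the WT IAA call did not hold in any of those fits. Its share of Cox6b1 and Cox6b2 TPM was 4.82% and 4.27% in R448Q ID and 23.8% and 20.8% in R342C ID, against 15.2% and 14.3% in WT ID. Cox7a1, an isoform known from heart and skeletal muscle, fell in Q418R ID (329 and 344 against 494 and 599 in WT ID, −0.69 ± 0.15 (SE), adjusted p = 0.00207) and in R448Q ID (−0.61 ± 0.15 (SE), adjusted p = 0.0023). The R448Q ID call was lost without R448Q ID replicate 2 (adjusted p = 0.0525). Cox6a2, another muscle isoform, had 48.9 and 39.4 in R342C ID and 0.893 and 3.66 in WT IAA against 9.51 and 10.0 in WT ID. It was called up in R342C ID (2.06 ± 0.65 (SE), adjusted p = 0.0279) and down in WT IAA (−1.86 ± 0.65 (SE), adjusted p = 0.0498), and neither call held in every fit with a library left out. Cox8b and Cox8c, below the filter, had at most 3.07 TPM in any library.

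Among the ubiquitous complex IV subunits, Cox4i1 rose in H455R ID (12241 and 10928 normalized counts against 7400.5 and 7620.5 in WT ID, 0.62 ± 0.10 (SE), adjusted p = 0.000204), R448Q ID (0.72) and K365T ID (0.37). Ndufa4 fell in Q418R ID, with 3889.8 and 4612 against 6171 and 6385 in WT ID (−0.57 ± 0.092 (SE), adjusted p = 0.000131), and in R342C ID (−0.29). Cox8a fell in R448Q ID (−0.32), and Cox6b1 (−0.23) and Cox7b (−0.26) in R377H ID, 3 calls that 1 left-out library could end. Cox6c in R342C ID (2602 and 5220.4 against 5037 and 5379 in WT ID) was called down, but its libraries overlapped WT ID and the difference was 0.0041 without R342C ID replicate 1.

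In complex V, R342C ID showed 5 decreases and 0 increases among 17 members, while K365T ID showed 6 increases and 0 decreases and R448Q ID 6 increases and 2 decreases. Of all genes 13.3% fell in R342C ID, 17.7% rose in K365T ID, and 22.8% rose and 23.1% fell in R448Q ID. Atp5g1, Atp5g2 and Atp5g3 encode the same mature c-ring subunit. Atp5g3 had 4570.3 and 5202 normalized counts in R342C ID against 6883 and 7307 in WT ID (−0.54 ± 0.078 (SE), adjusted p = 0.0001), with no overlap. Atp5g1 rose in R448Q ID (8297 and 8268 against 4447 and 4884 in WT ID, 0.83 ± 0.12), K365T ID (0.66 ± 0.12) and R377H ID (0.63 ± 0.12). Atp5g2 fell in WT IAA (2313 and 2229 against 3277 and 3029 in WT ID, −0.47 ± 0.10 (SE), adjusted p = 0.00332), in R339Q ID (−0.43 ± 0.10) and in R448Q ID (−0.26 ± 0.10). As a share of the 3 genes' TPM, Atp5g1 averaged 24.6% in R448Q ID, 21.8% in K365T ID and 15.6% in WT ID, and Atp5g2 averaged 34.1% in R342C ID, 23.9% in WT IAA and 31.0% in WT ID.

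Of the other subunits of ATP synthase, Atp5md, an accessory subunit linked to enzyme dimers, was called up in 8 mutants and in WT IAA. It had 4247 and 4102 normalized counts in R448Q ID, 3264 and 3512 in Q418R ID, 3632 and 3013 in R339Q ID and 3008 and 2998 in WT IAA, against 2275 and 2701 in WT ID. These libraries lay above WT ID, by 0.75 ± 0.085 in R448Q ID, 0.45 ± 0.085 in Q418R ID, 0.42 ± 0.085 in R339Q ID and 0.28 ± 0.085 in WT IAA, and R342C ID did not pass (2526 and 2457). In TPM, the shared reference WT ID (64.3 and 71.0) was itself below WT untreated (82.5 and 88.3), which WT IAA (83.4 and 82.1) overlapped. The increases in R339Q ID, S354F ID, K365T ID, R377C ID, R377H ID, H455R ID and WT IAA were lost in at least 1 fit with a library left out, and in R339Q ID, S354F ID, R377C ID, H455R ID and WT IAA that library could be WT ID replicate 1. Subunit e (Atp5k) fell in R342C ID with 438 and 476 against 723 and 814 in WT ID (−0.75 ± 0.16 (SE), adjusted p = 0.00267), as did the coupling factor subunit Atp5j (−0.51 ± 0.10 (SE), adjusted p = 0.00128). Atp5h, subunit d of the peripheral stalk, rose in R377H ID (7170.0 and 7176 against 4155 and 4615 in WT ID, 0.71 ± 0.088), R448Q ID (0.63 ± 0.088) and K365T ID (0.51 ± 0.088), and 71.1% of its transcript is matched by the gene Gm10250. Atp5a1, the alpha subunit of the F1 head, fell by 0.28 in R448Q ID, a call lost in each fit with a library left out.

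Part of these increases lay on chromosomes whose median was shifted. In R448Q ID the median log2 fold change of chromosomes 1, 3 and 8 differed from that of all genes by more than 0.2, and 12 of the 12 members on them rose, while 14 of the 70 others rose and 11 fell. In K365T ID chromosomes 1, 8 and 11 did so by the same limit, with 10 of 13 members up and 0 down, against 15 up and 1 down of 69 elsewhere. In R377H ID all 4 members on chromosome 11 rose, against 8 up and 4 down of 78 elsewhere, and in H455R ID 2 of 3 on chromosome 8 rose, against 2 of 79. In Q418R ID, where chromosomes 1 and 6 were shifted, 2 of their 10 members rose and 2 fell. The share of all genes called on these chromosomes is not given. These counts alone therefore do not show whether members differed from other genes there. With the median of genes within 5 Mb subtracted, Atp5h in R377H ID came to 0.16, Uqcrq in R377H ID to 0.11, Cox4i1 in H455R ID to 0.07 and Ndufa13 in H455R ID to 0.25, and these 4 calls ended. Cox6b2 in R448Q ID stayed at −1.41 (adjusted p = 5.55e-09) and Uqcrh in R342C ID at −0.77 (adjusted p = 7.03e-05). Ndufa9 in Q418R ID, called down at −0.31, turned to 0.18. Of the nuclear calls, 21 of 37 in R448Q ID, 13 of 26 in K365T ID, 17 of 22 in R342C ID, 10 of 16 in R377H ID and 6 of 11 in Q418R ID were still called after this subtraction. Other members were newly called, so that the totals came to 34, 22, 22, 16 and 11 in those lines. Calls described above that ended include Ndufa10 and Ndufa4 in Q418R ID, Ndufs8, Cox8a and Atp5g2 in R448Q ID, Cox4i1, Atp5h, Uqcr10 and Uqcrq in K365T ID, and Atp5g1, Uqcr10 and Cox6b1 in R377H ID. Also ended were Ndufa4 and Sdha in R342C ID, Sdha in R339Q ID and Cox6b2 and Cox6a2 in WT IAA.

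WT ID and WT IAA were set against WT untreated by TPM, because the untreated libraries had been scaled in another table, and a member counts as apart when means differ at least 1.5-fold and the libraries do not overlap. The untreated libraries had 25463 and 25800 genes detected, fewer than any other library (26880 or more). Treatment and anything else particular to the untreated libraries, such as separate handling, cannot be told apart. In WT ID 9 of 101 members were apart, as were 25.7% of all genes, with 4 higher and 5 lower than in WT untreated, where 19.8% of all genes were higher and 5.89% lower by that rule. In WT IAA 16 were apart, as were 29.7% of all genes, with 7 higher and 9 lower, where 22.6% were higher and 7.1% lower. For these shares all genes are those with any TPM above 0, 32015 for WT ID and 32209 for WT IAA. They are not the 18713 that passed the count filter, and they include genes with few counts, so the shares are not like for like with the mostly abundant members. By this rule the mitochondrially encoded mt-Nd3 and mt-Nd4l were higher in both, and mt-Atp8, mt-Cytb, mt-Nd2 and mt-Nd4 in WT IAA. With edgeR on recovered reads, 0 of the 13 mitochondrially encoded members were called up in either. The only edgeR call among them was a decrease of mt-Co1 in WT ID (log2 fold change −0.69, adjusted p = 0.0105). Its levels were 8996 and 8672 TPM in WT ID against 14474 and 10988 TPM in WT untreated. Small decreases were frequent among nuclear members, with 44 of 88 lower and 18 higher without overlap in WT ID, and 44 lower and 12 higher in WT IAA. Of all genes with any TPM above 0, 15.7% were lower and 38.4% higher without overlap in WT ID, and 16.7% lower and 40.3% higher in WT IAA. The median log2 ratio of the nuclear members was −0.10 in WT ID and −0.09 in WT IAA, against 0.18 and 0.17 for all genes with a mean of at least 1 TPM. By edgeR's quasi-likelihood test on recovered reads of both tables, 1 of 82 nuclear members was called up and 40 down in WT ID, and 2 up and 44 down in WT IAA. Of 18762 genes, 3925 were called up and 3653 down in WT ID (40.4% in all). In WT IAA 4463 were called up and 4082 down (45.5% in all).

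The largest of these differences was that of Ndufa4l2, a paralogue of Ndufa4 known as a hypoxia-induced gene. It had 2.03 and 1.86 TPM in WT ID and 3.37 and 4.20 TPM in WT IAA, against 41.0 and 54.9 TPM in WT untreated. Every treated library was below both untreated ones, and the ratio to untreated was −4.56 (log2) in WT ID and −3.63 in WT IAA. Cox4i2, the hypoxia-responsive isoform of subunit IV, followed with 1.37 and 0.737 TPM in WT ID and 1.56 and 1.17 in WT IAA, against 5.90 and 7.43 TPM in WT untreated. Within the treated libraries both were lowest in R448Q ID. Ndufa4l2 had 5.042 and 12.01 normalized counts there against 28.5 and 28.1 in WT ID (−1.72 ± 0.34 (SE), adjusted p = 0.000323), and Cox4i2 had 2.017 and 3.695 against 13.9 and 8.02 (−1.62 ± 0.46 (SE), adjusted p = 0.0068). Ndufa4l2 was called up in R377H ID (96.6 and 56.5, 1.35 ± 0.34 (SE), adjusted p = 0.00561), S354F ID (1.34), Q418R ID (0.99) and R342C ID (0.99), calls that rest on at most 96.6 normalized counts per library and were lost in at least 1 fit with a library left out. Ndufa4l2 overlaps the end of Shmt2 on the opposite strand by 32 bases. Atp5k and Ndufb7 were also lower than untreated in both, with Ndufb7 at 12.4 and 11.1 TPM in WT ID and 8.15 and 8.22 in WT IAA, against 22.001 and 20.76 in WT untreated.

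**Figure D5:**
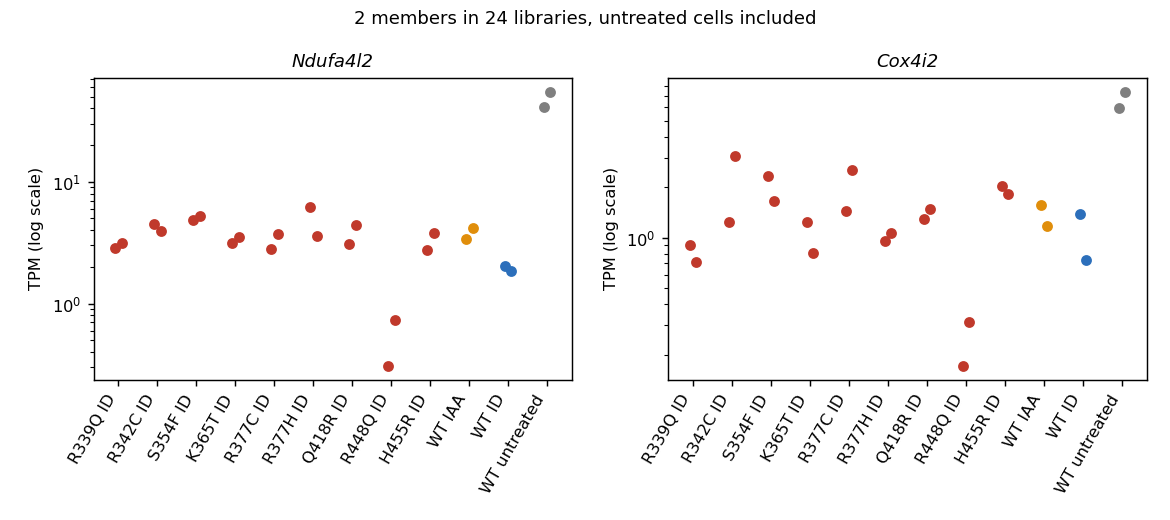
TPM of Ndufa4l2 and Cox4i2 in 24 libraries (log axis), 1 point per library, 2 per group. Ndufa4l2 stands at 41.0 and 54.9 TPM in WT untreated and at most 6.25 TPM in any treated library, and both genes are lowest in R448Q ID.

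The genes that build and supply the complexes were followed from lists of other pathway members. Of 78 tested proteins of the mitochondrial ribosome, which translates the 13 mitochondrially encoded members, 31 fell and 0 rose in R342C ID, 33 rose and 1 fell in K365T ID, 33 rose and 6 fell in R448Q ID, and 22 rose and 3 fell in R377H ID. Of all genes 13.3% fell and 10.0% rose in R342C ID, 17.7% rose and 14.2% fell in K365T ID, 22.8% rose and 23.1% fell in R448Q ID, and 14.4% rose and 10.7% fell in R377H ID. The median log2 fold changes of the ribosomal proteins were −0.24 in R342C ID, 0.20 in K365T ID, 0.20 in R448Q ID and 0.10 in R377H ID. In Q418R ID 4 rose and 10 fell, in H455R ID 2 and 8, in R339Q ID 1 and 4, in WT IAA 4 and 3, in S354F ID 0 and 1 and in R377C ID 0 and 2, where 11.2% of all genes rose and 13.8% fell in Q418R ID, 12.6% and 10.5% in H455R ID, 11.8% and 9.7% in R339Q ID, 9.96% and 10.7% in WT IAA, 5.49% and 4.31% in S354F ID and 4.67% and 3.43% in R377C ID. The same shares of all genes apply to the lists that follow. Replicates differed most in R342C ID, with a chi-square per gene between recovered reads of 34.8. It was 28.4 in K365T ID and 5.83 to 15.7 in the other groups. Counts of these lists with a library left out are not given. Mrps34 fell by 0.75 in R342C ID, and Mrps2 changed by −1.17 ± 0.080 in R339Q ID, −1.14 ± 0.080 in H455R ID and −0.75 ± 0.080 in K365T ID.

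Of 28 genes of mitochondrial transcription, replication and RNA processing, 13 rose and 1 fell in K365T ID, 9 and 2 in R448Q ID, 7 and 1 in Q418R ID, 5 and 1 in R377H ID, 3 and 3 in R339Q ID, 2 and 7 in R342C ID, 1 and 8 in H455R ID, 2 and 1 in S354F ID and 1 and 0 in both R377C ID and WT IAA. Beside these, 17.7% of all genes rose in K365T ID, 22.8% in R448Q ID and 11.2% in Q418R ID, and 13.3% fell in R342C ID and 10.5% in H455R ID. Lrpprc, which stabilizes mitochondrial messenger RNAs, was the largest increase in 7 mutants, by 0.77 ± 0.070 in R342C ID to 1.05 ± 0.070 in Q418R ID. Its gene lies on chromosome 17 past 75 Mb, as does Ndufaf7, a complex I assembly factor that was the largest increase of its list in 7 mutants, R377H ID in place of R448Q ID (0.46 ± 0.16 in R339Q ID to 0.97 ± 0.16 in R377H ID). In R377H ID the elongation factor Tefm led with 1.06 ± 0.12. All genes named from these lists are given without subtraction of chromosome or regional medians. Chromosome 11 was shifted in R377H ID and chromosomes 1, 3 and 8 in R448Q ID, and the part of such shifts in these genes is not given. Among 23 complex IV assembly genes 9 rose and 7 fell in R448Q ID, where 22.8% of all genes rose and 23.1% fell, with Cox20 at 1.08 ± 0.17 and the copper chaperone Sco2 at −1.30 ± 0.26. Of 15 regulators of respiratory genes 7 rose and 3 fell in R448Q ID, with Myc at 1.39 ± 0.24 and the nuclear receptor Esrra at −0.89 ± 0.10, and Myc was also called up in WT IAA (1.19 ± 0.24) and down in R342C ID (−0.90 ± 0.24). Of 14 citric acid cycle genes 3 rose and 7 fell in R448Q ID, with Fh1 (fumarase) at 0.76 ± 0.093 and Idh2 at −0.98 ± 0.10. Of 13 tested mitochondrial rRNAs and tRNAs, 6 rose in R448Q ID, 3 in R339Q ID, 2 in K365T ID, 2 in H455R ID, 1 in R377H ID and 1 in Q418R ID, and none fell in these 6 comparisons.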

How the data were processed

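The authors deposited gene-level normalized counts, a signal made by dividing each library's gene counts by its own size factor, in 1 table of 22 libraries and another of the 2 untreated ones, and TPM for the same libraries. Per the labels' protocols, 500 ng of total RNA was depleted of ribosomal RNA in a stranded preparation and read as 150 bp pairs. Per the submitters' processing notes, Trim Galore, STAR and DESeq2 were used with mm10. Which read counter was used, with what strand setting, is not given in the sources used here. In every library 100% of the values above 0 lay within 0.001 of a whole multiple of the step that 1 read is worth. The recovered reads were used as an alternative. The tables held 0 columns from outside the series.

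The model, with a mean for each group, took log2(normalized count + 1) of the 18713 genes with a mean of at least 10, using limma 3.58.1 in R 4.3.3 with a trended variance and 11 residual degrees of freedom. Its two-sided moderated p-values had Benjamini-Hochberg adjustment separately in each comparison, and an adjusted p under 0.05 was a call. Untreated libraries, scaled separately, were compared by log2 ratios of mean TPM + 0.1 without a test. A ± after a log2 fold change gives the standard error. Alternatives included edgeR 4.0.16 and DESeq2 1.42.0 on recovered reads, TPM, quantile normalization, other filters and pseudocounts, a replicate block, and subtraction of chromosome or regional medians, the last chosen after seeing the data. The model was checked on simulated data. Counts limit precision by depth, and p-values cover spread between libraries only.

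The members, gene lists and tests were chosen with earlier results of these data known. Named members are every called member of a comparison with at most 12, otherwise the 6 largest increases and 6 largest decreases among called members with a mean count of at least 50, together with the mitochondrially encoded members and the tissue isoforms. From each list the largest called increase and decrease were eligible. Other members named, among them Sdhd, Sdhc in K365T and R448Q, and Ndufs1, were chosen after their values were seen. Coordinates are those of GENCODE M21 (mm10), and for Atp5md, Atp5o and Atp5pb those of RefSeq GRCm38.p6. Of the nuclear members, 28 overlap a gene on the opposite strand, and 4 of the 82 searched had at least 50% of the transcript matched at 98% identity by another gene.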

Additional observations from a re-analysis of the deposited data

Results flagged for a closer look

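In all, 13 nuclear members were called up in 1 mutant and down in another, each against the same WT ID pair and with no overlap with it either way. How many of all tested genes did so is not given, so such opposite calls cannot be called particular to the members. The difference between the 2 mutants was not tested, and values are log2 fold changes over WT ID (SE 0.075 to 0.34). In complex I, Ndufs1 was 0.57 in R448Q ID and −0.33 in R342C ID, a gap of 0.90. Ndufb7 was 0.45 in R448Q ID and −0.45 in R342C ID, a gap of 0.90. Ndufc1 was 0.69 in R448Q ID and −0.36 in Q418R ID, a gap of 1.05. Ndufb10 was 0.50 in R377H ID and −0.27 in Q418R ID, a gap of 0.76. Ndufa9 was 0.30 in K365T ID and −0.31 in Q418R ID, a gap of 0.61. Among the others of the electron transport chain, Uqcrh was 0.53 in R448Q ID and −0.79 in R342C ID, a gap of 1.32. Sdhc was 0.44 in K365T ID and −0.33 in R342C ID, a gap of 0.77. Cox6b2 was 0.52 in R342C ID and −1.82 in R448Q ID, a gap of 2.34. Ndufa4l2 was 1.35 in R377H ID and −1.72 in R448Q ID, a gap of 3.08. Cox7a2 was 0.28 in R448Q ID and −0.31 in R342C ID, a gap of 0.59. In ATP synthase, Atp5g3 was 0.21 in K365T ID and −0.54 in R342C ID, a gap of 0.75. Atp5j2 was 0.32 in R448Q ID and −0.48 in R342C ID, a gap of 0.80. Atp5mpl was 0.31 in R448Q ID and −0.35 in R342C ID, a gap of 0.66. R342C ID held the low value in 8 of the 13. With the median of genes within 5 Mb subtracted, both calls remained for 6 of the 13, and the R448Q ID increases of Ndufs1, Ndufb7, Ndufc1 and Cox7a2, the K365T ID increase of Atp5g3 and the Q418R ID decreases of Ndufa9 and Ndufb10 were among those that ended. With 1 library left out at a time, both calls held in every fit for 2 members, Cox6b2 and Uqcrh, and the Q418R ID decreases of Ndufa9, Ndufb10 and Ndufc1 held in 1 of 4 fits.

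Of the symbols ending in -ps, which were not members, 5 passed the filter on low counts. Ndufa12-ps had 377.1 and 366 normalized counts in R448Q ID against 261 and 312 in WT ID, an increase of 0.38 ± 0.14 (adjusted p = 0.0319) that stood above WT ID without overlap.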

How the results depend on the processing

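Of 91 calls of named members, the alternatives other than leaving out a library kept 654 of 767 values past the threshold in the same direction, 109 lost the threshold and 4 turned round. Leaving out 1 library at a time kept 214 of 364 values past the threshold, 149 lost it and 1 turned round, that of Cox6c, R342C ID over WT ID, at 0.0041 without R342C ID replicate 1 (range −1.0004 to 0.0041). The 4 others were Cox7a2l in S354F ID (−0.0094) and K365T ID (−0.0008) with regional medians removed, and Ndufa9 in Q418R ID with chromosome medians (0.17) or regional medians (0.18) removed. The replicate numbers did not pair the libraries (median correlation 0.02 over 55 pairs, 18.2% over 0.1). A replicate block kept 86 of the 91 calls and gave 37 nuclear calls in R448Q ID as without it. It gave 1 mitochondrially encoded call in R342C ID in place of 2, as did TPM, no filter on low counts and DESeq2.

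The other counts that moved by more than 1.5 times were these. Mitochondrially encoded calls were 1 in S354F ID under TPM. They were 0 in K365T ID under TPM, no filter and DESeq2. In R377C ID they were 1 under TPM and quantile normalization and 2 under no filter, in R377H ID 1 under TPM and quantile normalization, and in Q418R ID 2 under TPM and quantile normalization and 1 under no filter. Nuclear calls were 2 in S354F ID under no filter, and with shifted chromosomes left out 16 in K365T ID, 7 in Q418R ID and 2 in H455R ID. In Q418R ID they were 21 (5 up, 16 down) under TPM and 18 (10 up, 8 down) under quantile normalization, against 5 up and 6 down in the main test. The cause was not tested, except that leaving out chromosomes leaves fewer members.

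Relative to untreated cells, 25 members in WT ID and 26 in WT IAA were apart at the lower fold limit tried, and edgeR on recovered reads called 42 (1 up, 41 down) in WT ID and 46 (2 up, 44 down) in WT IAA. The log2 ratio of mitochondrially encoded to nuclear levels was 0.72 in R339Q ID from summed reads, 0.20 in R342C ID from mean log2 values, and 1.21 in R448Q ID with mt-Co1, mt-Atp8, mt-Nd4l and mt-Nd6 left out. For WT ID over untreated it was 0.39 from mean log2 values and 0.25 with those 4 genes left out, and for WT IAA over untreated 0.65 and 0.64. From mean log2 values or with those genes left out, 6 mutants in place of 7 stood above WT ID.

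With 1 library left out, nuclear calls ran from 2 to 9 in R339Q ID, 11 to 30 in R342C ID, 1 to 2 in S354F ID, 13 to 29 in K365T ID, 1 to 2 in R377C ID, 8 to 10 in R377H ID, 7 to 15 in Q418R ID and 3 to 6 in WT IAA. Mitochondrially encoded calls ran from 0 to 3 in R339Q ID and R342C ID, 0 to 2 in S354F ID and R377H ID, 0 to 4 in K365T ID, 0 to 1 in R377C ID and 1 to 2 in Q418R ID. Members apart from untreated in WT ID ran from 10 to 14. The lone library of a group was then assumed to vary like the others. Members with few counts, such as Cox7b2, Cox6a2, Cox4i2 and the 6 low mitochondrial genes, limit what their fold changes show.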
